A study of Mus musculus with 12 samples.

Results

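The genes described here encode the subunits of the 4 complexes of the mitochondrial respiratory chain (complexes I to IV) and of ATP synthase (complex V), together with the few assembly factors that share their symbols. A probe set, the group of oligonucleotides that reads 1 transcript on the array, was taken as a member when its only gene symbol in the platform annotation began with Nduf, with Sdh and then a, b, c or d, with Uqcr, with Cox4, Cox5, Cox6, Cox7 or Cox8, or with Atp5. This found 100 probe sets for 73 genes among the 12488 probe sets of the array, of which 10855 had 1 symbol. Complex I had 42 of these probe sets, complex II had 6, complex III had 7, complex IV had 23 and complex V had 22. A further 10 probe sets carried several symbols and were not named by any of them. The rule reads symbols and no measured value, but it was set with earlier results of these data known.

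RNA came from mouse embryonic fibroblasts (MEFs) of genotype KSR1 -/- and background strain DBA, so that every line, the control included, lacked its own copy of KSR1 and carried GFP. KSR1 is a scaffold protein that brings the kinases of the Raf, MEK and ERK cascade together, and H-RasV12 is an oncogenic, constantly active form of the small GTPase that starts this cascade. The 4 lines expressed KSR1 with H-RasV12 and GFP (the KSR1+H-RasV12 line), KSR1 with GFP (the KSR1 line), H-RasV12 with GFP (the H-RasV12 line), or GFP alone (the GFP line), with 3 arrays for each. Each condition was 1 cell line, the labels do not say that the arrays of a line came from separate cultures, and the promoter of each transgene is not given in the sources used here. The spread behind each p-value is thus that between arrays, which may be technical, and an effect of a transgene and a difference between 2 lines cannot be told apart.

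Complexes I and II pass electrons from NADH and from succinate to ubiquinone, complex III passes them on to cytochrome c, and complex IV passes them to oxygen. Complexes I, III and IV pump protons across the inner mitochondrial membrane, and ATP synthase lets them flow back to make ATP. Most of these subunits are encoded in the nucleus, as are all members here, and several subunits of complex IV exist in a form found in most tissues and another found in heart, muscle or brown fat.

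Values are MAS5 signals, the authors' summary of each probe set's brightness on a linear scale, and all 12 arrays had the same 2% trimmed mean of 500.3. The array-specific median signal lay between 160.6 and 216.5, and arrays of the same line correlated at 0.911 to 0.965 over the tested probe sets, against 0.808 to 0.956 between lines. As a check of the labels, 1 of 2 Ksr1 probe sets (92765_s_at) read 301, 262 and 141 in the KSR1+H-RasV12 line, 933, 1605 and 207 in the KSR1 line, 20.2, 32.2 and 14.2 in the H-RasV12 line and 144, 21.1 and 37.5 in the GFP line. The GFP array at 144 lay above the KSR1+H-RasV12 array at 141, so lines with and without KSR1 overlapped in this probe set. The other Ksr1 probe set (92764_at) read between 180.2 and 366.3 on all arrays and also did not separate the lines. The first replicate arrays of the KSR1+H-RasV12, KSR1 and GFP lines had 18S rRNA signals of 146.4, 394.7 and 344.6, below the 515.7 to 3312 of the other 9 arrays. The beta-actin 3′/5′ signal ratio, a sign of RNA quality, was 1.61, 1.34 and 1.73 on the KSR1+H-RasV12 arrays, 1.18, 1.07 and 1.26 on the KSR1 arrays, 1.34, 1.09 and 1.62 on the H-RasV12 arrays and 1.72, 1.32 and 1.77 on the GFP arrays, so that it separated the KSR1+H-RasV12 and KSR1 lines on every array. The same ratio of Gapdh overlapped between these 2 lines, at 0.799 to 0.846 on the KSR1+H-RasV12 arrays and 0.74 to 0.847 on the KSR1 arrays. Of 10 fibroblast markers, 8 passed the filter described next, but in the KSR1+H-RasV12 line Pdgfrb read only 59.6, 32.2 and 7.06 and Col1a1 4299, 1921 and 178. In the KSR1 line Pdgfrb read 363.5, 121.6 and 69.4 and Col1a1 7550, 9357 and 8475. Other tested markers went both ways against the KSR1 line, with no adjusted p under 0.05 in the fit described next. Their log2 fold changes were 0.41 for Col1a2, 0.23 for Sparc, 0.21 for Col3a1, 0.09 for Fn1, -0.37 for Pdgfra and -0.44 for S100a4. The summed signal of the 10 was 21000 to 32540 in the KSR1+H-RasV12 line, 33760 to 37180 in the KSR1 line, 51450 to 70610 in the H-RasV12 line and 54470 to 71810 in the GFP line. The part of the differences in rRNA, 3′/5′ ratio and fibroblast markers in the results below was not tested.

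The test took in each probe set with 3 or more arrays above 181.4, the median over the whole data set. Of the 100 members, 72 probe sets for 64 genes passed. Of these, 65 exceeded that level on all 12 arrays, and 69 exceeded it on 3 or more of the 9 arrays outside the KSR1+H-RasV12 line. The rest passed only because arrays of the KSR1+H-RasV12 line were counted. All of them also had an array above the level outside that line, and they are kept in the counts below. None of them was called in the KSR1+H-RasV12 line against the KSR1 line, where each called member had a mean signal of at least 279.3. The other 28 probe sets, the only ones for 9 genes, were dim, and 24 of them stayed under 200 on every array. Differences are given as log2 fold changes of the signal plus 23, with a standard error (SE) from the limma fit over all 6897 probe sets that passed, and a probe set was called when its p, adjusted over these 6897 by the Benjamini-Hochberg method, was under 0.05.

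Genes of all 5 complexes rose in the KSR1+H-RasV12 line against the KSR1 line, a comparison that asks what H-RasV12 changes when KSR1 is present. Of the 72 tested members, 35 rose and 0 fell, a share of 48.6% beside the 8.16% of all tested probe sets that rose (6.92% fell, 15.1% were called in either direction). Their median log2 fold change was 0.72, against -0.07 for all tested probe sets, and 63 of the 72 were above 0, against 43.6% of all tested probe sets. With each array centred on its median instead, the median of all tested probe sets became 0.09, and 69.1% rather than 54.1% of all calls were higher. Such centring shifts all probe sets of an array alike, so it cannot change the members' distance from that median, 0.79. With quantile normalization, which can change it, the distance was 0.70. Counted with 1 probe set for each gene, 34 of 64 genes rose. The count was 19 without the second KSR1+H-RasV12 array, 20 without the first KSR1 array and 22 without the second KSR1 array. On replicate arrays 2 and 3 of each line alone, away from the arrays with low 18S rRNA, it was 25. The beta-actin 3′/5′ ratio differed between the same 2 lines on every array, and its part in the count was not tested. In RNA from whole cultures, fewer cells of a type and less RNA per cell cannot be told apart.

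On each array, the members' typical level was read as the median over the 72 of their deviation from their own 12-array mean (log2 scale). It was 0.40, 0.55 and 0.37 on the KSR1+H-RasV12 arrays, -0.37, -0.32 and -0.05 on the KSR1 arrays, -0.09, -0.21 and -0.02 on the H-RasV12 arrays, and -0.26, 0.02 and 0.02 on the GFP arrays. The same median over all tested probe sets stayed between -0.05 and 0.04. The 3 KSR1+H-RasV12 arrays thus stood above the other 9 in this summary, and 2 of the 3 KSR1 arrays stood lowest. For single members, all 3 KSR1+H-RasV12 arrays exceeded the other 9 in 32 of 72, which is 44.4% beside 6.57% of all tested probe sets. The line with the highest mean was KSR1+H-RasV12 for 55 of 72 members (25.4% of all tested probe sets), and the line with the lowest mean was KSR1 for 41 of 72 (25.2%).

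**Figure D1:**
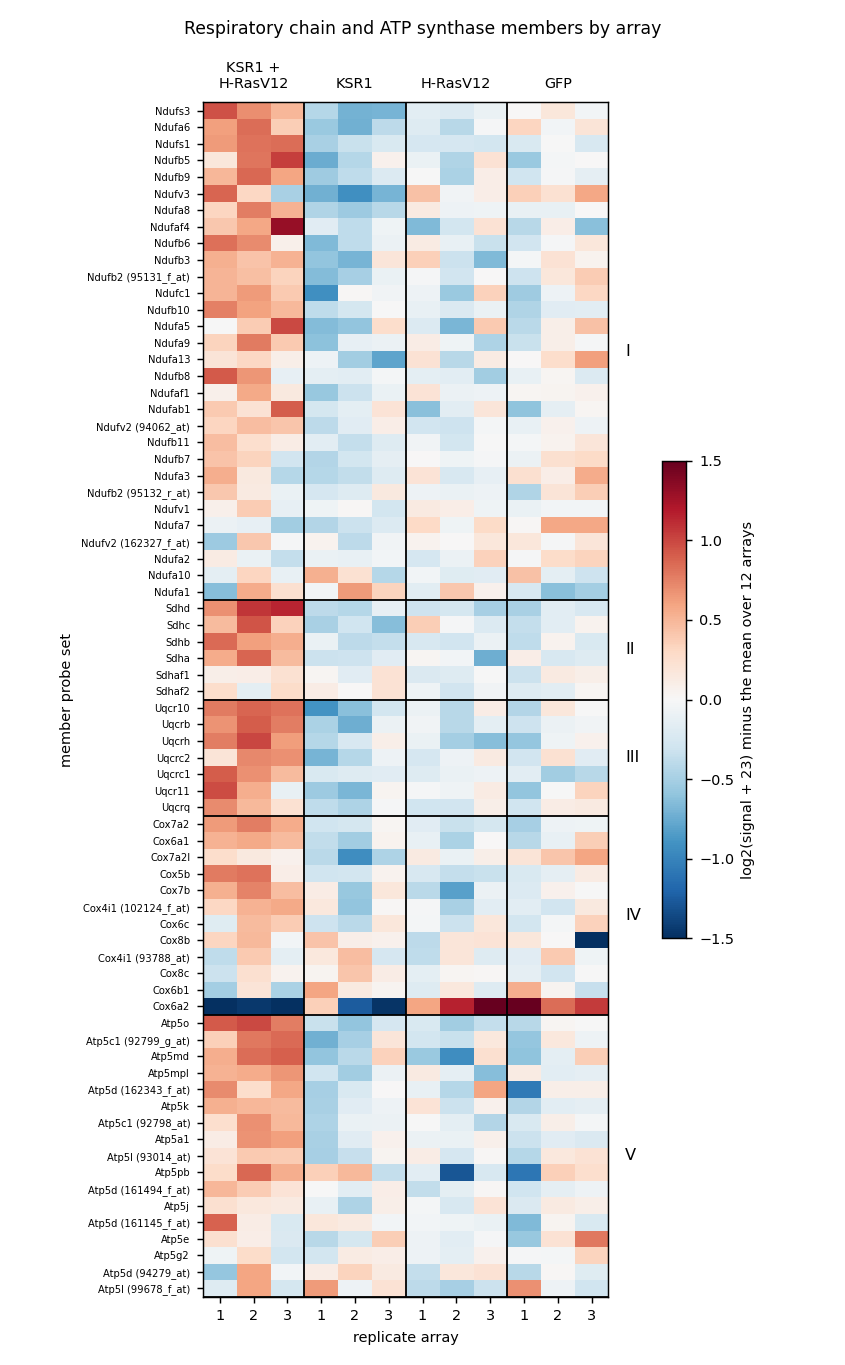
Each row is 1 of the 72 tested member probe sets, grouped by complex, and each column is 1 array; the colour is log2(signal + 23) minus the row's mean over the 12 arrays, with the scale ending at -1.5 and 1.5. Most rows are red on the 3 KSR1+H-RasV12 arrays. Cox6a2 in complex IV is instead lower on the arrays of both lines with KSR1 than on those of both lines without it.

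**Figure D2:**
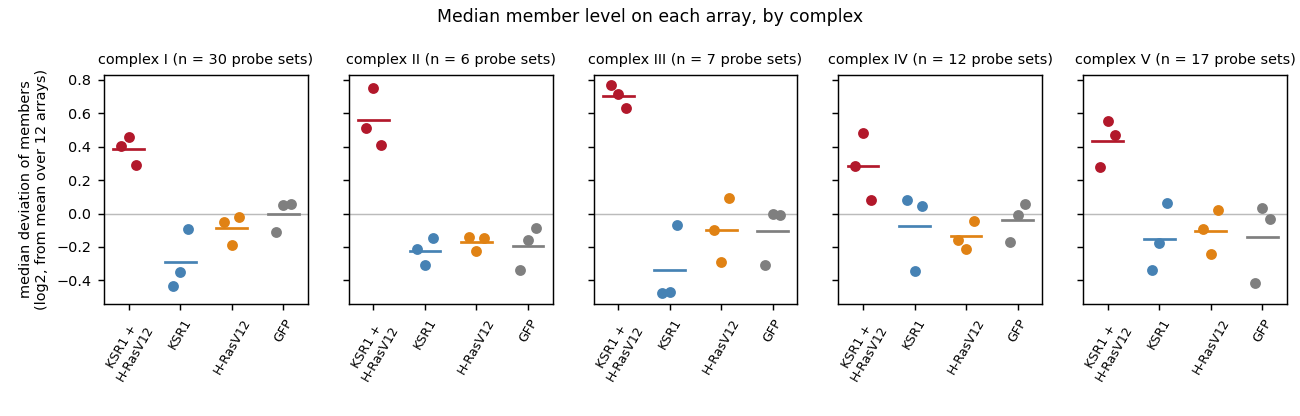
Each point is the median deviation of a complex's tested members on 1 array (log2, from each member's mean over the 12 arrays), and each bar is the mean of 3 arrays. The KSR1+H-RasV12 points lie above all others in complexes I, II, III and V; in complex IV their range of 0.08 to 0.48 starts at the highest KSR1 array, also at 0.08.

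In complex I, which oxidises NADH, 15 of 30 tested members rose in the KSR1+H-RasV12 line against the KSR1 line, with a median log2 fold change of 0.72. The core subunits, those that carry the catalytic chain, had 3 of 5 probe sets called, the accessory subunits 11 of 23, and the assembly factors 1 of 2. Ndufs3, a core subunit of the matrix arm, had signals of 3587, 2993 and 2604 in the KSR1+H-RasV12 line, 1363, 1117 and 1129 in the KSR1 line, 1649, 1596 and 1713 in the H-RasV12 line and 1854, 2070 and 1795 in the GFP line. Its lowest KSR1+H-RasV12 array lay above every array of the other lines, and the log2 fold change against the KSR1 line was 1.32 ± 0.17 (adjusted p = 9.81e-05). Ndufs1, the largest core subunit and a holder of iron-sulfur clusters, read 2701, 3064 and 3112 in the KSR1+H-RasV12 line, 1227, 1365 and 1478 in the KSR1 line, 1452, 1453 and 1419 in the H-RasV12 line and 1477, 1724 and 1457 in the GFP line. The other 3 lines lay close together and the KSR1+H-RasV12 line stood apart from them, by 1.11 ± 0.15 against the KSR1 line (adjusted p = 0.000192).

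Among the accessory subunits, Ndufa6 read 1221, 1423 and 1028 in the KSR1+H-RasV12 line, 530.2, 469 and 598 in the KSR1 line, 688, 586 and 778 in the H-RasV12 line and 989, 764 and 903 in the GFP line. The KSR1+H-RasV12 arrays did not overlap any other, the KSR1 arrays overlapped only the H-RasV12 arrays, and the log2 fold change against the KSR1 line was 1.16 ± 0.19 (adjusted p = 0.000663). Ndufb5, an accessory subunit of the membrane arm, read 5770, 8983 and 10570 in the KSR1+H-RasV12 line and 3042, 3797 and 5358 in the KSR1 line, a difference of 1.04 ± 0.27 (adjusted p = 0.0174). Its arrays were more scattered, the call was lost in 4 of 12 fits that left out 1 array (the first or second KSR1 array, or the second or the third KSR1+H-RasV12 array), and its probe set belongs to a class that can also read related sequences. Probe sets of Ndufb2 (95131_f_at), Uqcrb (95472_f_at), Uqcrc2 (102000_f_at) and Cox6a1 (99631_f_at), given below, are of the same class. The name of the Sdhb probe set (95053_s_at) also marks shared probes. The 2 tested assembly factors differed in their call: Ndufaf4 rose by 0.97 ± 0.28 (adjusted p = 0.0338), and Ndufaf1 had 0.59 ± 0.19 (adjusted p = 0.0528).

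The other 15 tested members of complex I did not pass the threshold. Ndufa7 read 3586, 3484 and 2644 in the KSR1+H-RasV12 line and 2810, 3029 and 3294 in the KSR1 line, a log2 fold change of 0.08 ± 0.20 (adjusted p = 0.84). Ndufa2 had -0.03 ± 0.19 (adjusted p = 0.944) with no array below 1356. The dimmer Ndufa10 and Ndufa1, with no array above 497 and 223, were at -0.09 and -0.26. The sign of all 4 estimates changed under at least 1 other setting.

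Complex II, which joins the citric acid cycle to the chain by oxidising succinate, had 4 of 6 tested members called. All 4 subunits rose in the KSR1+H-RasV12 line against the KSR1 line, while neither of its 2 assembly factors passed the threshold. Sdha, the flavoprotein with the active site, read 823, 1037 and 778 in the KSR1+H-RasV12 line, 438, 442 and 488 in the KSR1 line, 567, 536 and 324 in the H-RasV12 line and 595, 465 and 481 in the GFP line (log2 fold change against KSR1 0.90 ± 0.22, adjusted p = 0.0103). Sdhb, the iron-sulfur subunit, read 4472, 3799 and 3609 in the KSR1+H-RasV12 line and 2296, 1869 and 1910 in the KSR1 line (0.96 ± 0.17, adjusted p = 0.00138). Both were separated from the KSR1 arrays on every array, and the call for Sdha was lost without the second KSR1+H-RasV12 array.

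The 2 membrane anchors of complex II, which hold the ubiquinone site, rose as well. Sdhd read 5180, 6768 and 7108 in the KSR1+H-RasV12 line, 2434, 2367 and 2944 in the KSR1 line, 2587, 2663 and 2261 in the H-RasV12 line and 2278, 2865 and 2702 in the GFP line. The arrays of the other 3 lines overlapped each other and lay below all KSR1+H-RasV12 arrays, and the log2 fold change against the KSR1 line was 1.28 ± 0.18 (adjusted p = 0.000186). Sdhc read 4446, 6142 and 4062 in the KSR1+H-RasV12 line and 2267, 2581 and 2035 in the KSR1 line (1.07 ± 0.21, adjusted p = 0.00252), but its lowest KSR1+H-RasV12 array fell below the highest H-RasV12 array, at 4114, 3149 and 2755. The assembly factors Sdhaf1 and Sdhaf2, which serve the iron-sulfur subunit and the flavoprotein, had log2 fold changes of 0.12 and 0.02. The Sdhaf1 probe set (101023_f_at) is of the class that can also read related sequences. A missing call in these 2 probe sets does not show a difference by role.

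Complex III had the highest share of calls, 6 of 7 tested members, with a median log2 fold change of 0.93. Uqcr10, a small supernumerary subunit, read 4474, 4760 and 4594 in the KSR1+H-RasV12 line, 1389, 1679 and 2139 in the KSR1 line, 2452, 1936 and 2799 in the H-RasV12 line and 1915, 2915 and 2584 in the GFP line. The KSR1+H-RasV12 arrays lay close together and above all others, and the difference from the KSR1 line, 1.42 ± 0.21 (adjusted p = 0.00031), had the largest log2 fold change among the 72 tested members. Uqcrb, a small subunit next to the ubiquinone site, read 4661, 5504 and 5000 in the KSR1+H-RasV12 line and 2093, 1747 and 2753 in the KSR1 line (1.21 ± 0.19, adjusted p = 0.000475). Uqcrh, the hinge protein near cytochrome c1, read 4867, 5722 and 4422 in the KSR1+H-RasV12 line and 2122, 2407 and 3035 in the KSR1 line (0.99 ± 0.22, adjusted p = 0.00587).

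The 2 large core proteins of complex III rose as well: Uqcrc1 by 0.88 ± 0.16 (adjusted p = 0.00191) and Uqcrc2 by 0.93 ± 0.22 (adjusted p = 0.00886). Uqcrq, another small subunit, rose by 0.77 ± 0.20 (adjusted p = 0.0175). The exception, Uqcr11, had a similar estimate of 0.87 ± 0.29 but a wide spread over the KSR1+H-RasV12 arrays, 3387, 2495 and 1584, against 1160, 1054 and 1758 in the KSR1 line, and its adjusted p was 0.0567.

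In complex IV, cytochrome c oxidase, 4 of 12 tested members rose, with a median of 0.51. Cox7a2, the subunit 7a form of most tissues, read 7423, 8085 and 6995 in the KSR1+H-RasV12 line, 3859, 3952 and 4849 in the KSR1 line, 4223, 3768 and 3953 in the H-RasV12 line and 3364, 4497 and 4530 in the GFP line (0.83 ± 0.17 against KSR1, adjusted p = 0.00383). Cox6a1, the subunit 6a form of most tissues, read 9957, 10270 and 9689 in the KSR1+H-RasV12 line and 5391, 4831 and 7210 in the KSR1 line (0.80 ± 0.22, adjusted p = 0.0244). Cox5b, a subunit on the matrix side, read 4778, 4904 and 2976 in the KSR1+H-RasV12 line and 2259, 2283 and 2874 in the KSR1 line (0.74 ± 0.20, adjusted p = 0.0235). Cox7a2 kept its call in all 22 alternative fits. Cox6a1 lost it without the first or second KSR1 array or the second or the third KSR1+H-RasV12 array, and Cox5b without the first or second array of either line. Of the 4 tested members of this complex below 0, Cox6a2, Cox8c and a probe set of Cox4i1 are described with the isoforms and repeated probe sets, and Cox6b1, a subunit on the outer side, read 213, 362 and 218 in the KSR1+H-RasV12 line and 483, 345 and 323 in the KSR1 line (-0.52 ± 0.27, adjusted p = 0.23).

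In complex V, the ATP synthase, 6 of 17 tested members rose, for 5 of 12 genes, with a median of 0.59. Atp5o, the subunit that ties the catalytic head to the peripheral stalk, read 5923, 6203 and 5326 in the KSR1+H-RasV12 line, 2464, 2060 and 2614 in the KSR1 line, 2671, 2166 and 2436 in the H-RasV12 line and 2338, 3190 and 3114 in the GFP line. No array of the other lines came near the KSR1+H-RasV12 values, and the log2 fold change against the KSR1 line was 1.29 ± 0.18 (adjusted p = 0.000175). Atp5c1, the rotating central stalk, was read by 2 probe sets, with 1.01 ± 0.26 (adjusted p = 0.0158) for 92799_g_at and 0.69 ± 0.19 (adjusted p = 0.0216) for 92798_at. The calls of both were lost without the first KSR1 array and without the second or the third KSR1+H-RasV12 array, and that of 92799_g_at also without the second KSR1 array.

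Atp5mpl, a small subunit of the membrane part, read 4997, 5109 and 5523 in the KSR1+H-RasV12 line and 2819, 2405 and 3254 in the KSR1 line (0.89 ± 0.20, adjusted p = 0.00749). Atp5k, subunit e of the membrane part, read 401, 393 and 384 in the KSR1+H-RasV12 line and 186, 238 and 256 in the KSR1 line (0.75 ± 0.21, adjusted p = 0.0269), a call lost without the first or second KSR1 array or the second or the third KSR1+H-RasV12 array. The catalytic head subunit Atp5a1 rose by 0.67 ± 0.19 (adjusted p = 0.029). Atp5g2, which encodes the proton-carrying ring, read 1720, 2175 and 1482 in the KSR1+H-RasV12 line and 1474, 1954 and 1923 in the KSR1 line, a log2 fold change of 0.00 ± 0.19 (adjusted p = 0.999). Atp5e, a small subunit of the central stalk, had 0.14 ± 0.29 (adjusted p = 0.806).

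**Figure D3:**
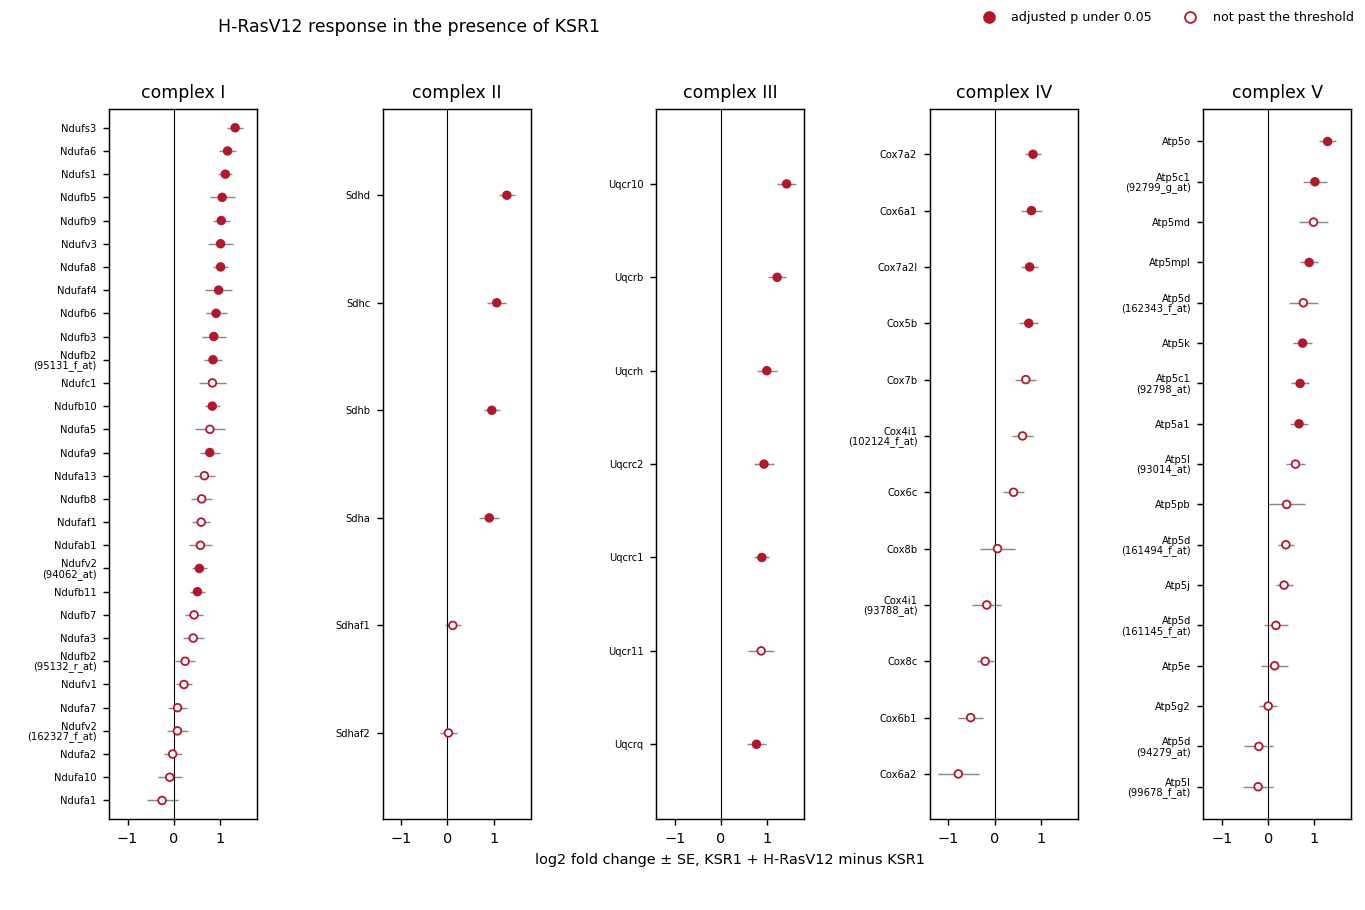
Points are log2 fold changes of each tested member in the KSR1+H-RasV12 line against the KSR1 line, with SE as bars, in 5 panels by complex; filled points had an adjusted p under 0.05. The filled points, 35 in all, lie right of 0, from 0.51 for Ndufb11 to 1.42 for Uqcr10, and complex IV reaches farthest left, to -0.79 for Cox6a2.

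Calls were more frequent among the bright members. Of the 48 tested members with a mean signal of 1000 or more, 30 rose, and of the 24 with a lower mean, 5 rose. Of the 49 plain probe sets, those whose name does not mark shared or fewer probes, 28 rose, against 7 of the 23 in other classes. The share of all tested probe sets that rose, 8.16%, was not split by brightness or class. It is thus not a matched background for these counts or for the 48.6% over all members. Several calls rested on single arrays: those of Ndufaf4, Uqcrq, Atp5a1 and Ndufv2 (94062_at) were each lost without the first KSR1 array, without the second KSR1 array and without the second KSR1+H-RasV12 array, and that of Ndufb2 (95131_f_at) without the first KSR1 array. The call of Ndufb11, which had the smallest change of the 35, was lost in 11 of 12 fits that left out 1 array and in 15 of all 22 alternative fits. The calls of 17 of the 35, Sdhc and Ndufa8 among them, held in all 22 alternative fits. Where a gene had several tested probe sets, these did not always give the same call. Ndufb2 rose by 0.85 ± 0.20 in 95131_f_at and had 0.24 ± 0.22 (adjusted p = 0.513) in 95132_r_at. Ndufv2, a core subunit with an iron-sulfur cluster, rose by 0.55 ± 0.17 in 94062_at, and the dimmer 162327_f_at gave 0.08 ± 0.23 (adjusted p = 0.866). For Cox4i1, a subunit of complex IV, 102124_f_at gave 0.60 ± 0.23 (adjusted p = 0.099) and 93788_at gave -0.17 ± 0.31 (adjusted p = 0.775), with array signals of 219 to 519 and of 102 to 203. The 4 tested probe sets of Atp5d, a central stalk subunit, ran between -0.20 in 94279_at and 0.76 in 162343_f_at, with 0 called. The 2 of Atp5l gave 0.59 in the bright 93014_at and -0.22 in the dim 99678_f_at, with neither called. The signs of Cox4i1 (93788_at), Atp5d (94279_at), Atp5l (99678_f_at) and Ndufv2 (162327_f_at) changed under other settings.

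Many of the same genes were also higher in the KSR1+H-RasV12 line than in the 2 lines without KSR1. Against the H-RasV12 line, 26 of 72 members rose and 1 fell, beside 7.1% of all tested probe sets higher and 7.71% lower (14.8% called in either direction), with a median of 0.54. Against the GFP line, 23 rose and 2 fell, beside 7.71% higher and 7.93% lower (15.6% called in either direction), with a median of 0.55. The count of 27 calls against H-RasV12 was 17 without the second H-RasV12 array and 17 without the second KSR1+H-RasV12 array. The count of 25 calls against GFP was 16 without the first GFP array, 16 without the third GFP array, and 14 without the second KSR1+H-RasV12 array. These 3 comparisons share the KSR1+H-RasV12 arrays, so their calls are not independent of each other.

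A set of 18 members, 25.0% of the 72, rose against all 3 other lines, beside 3.48% of all tested probe sets: Ndufs1, Ndufs3, Ndufa8, Ndufb9, Ndufb10 and Ndufaf4 in complex I, Sdha, Sdhb and Sdhd in complex II, Uqcr10, Uqcrb, Uqcrc1 and Uqcrh in complex III, Cox5b and Cox7a2 in complex IV, and Atp5o, Atp5c1 (92799_g_at) and Atp5mpl in complex V. Of the 18, the 10 whose 3 calls all held in every one of the 22 alternative fits were Ndufs1, Ndufb10, Sdhb, Sdhd, Uqcr10, Uqcrb, Uqcrc1, Uqcrh, Cox7a2 and Atp5o. Without the second KSR1+H-RasV12 array 11 of the 18 were left, with Ndufa8, Ndufb9, Ndufaf4, Sdha, Cox5b, Atp5c1 and Atp5mpl lost. Without the third GFP array 11 of the 18 were also left, with Ndufs3, Ndufa8, Ndufaf4, Sdha, Cox5b, Atp5c1 and Atp5mpl lost. Sdhd differed by 1.28, 1.33 and 1.27 against the KSR1, H-RasV12 and GFP lines. For Ndufs3 the 3 values were 1.32, 0.87 and 0.67, and for Uqcrc1 they were 0.88, 0.81 and 1.05. Sdhd and Uqcrc1 thus stood about as far above each of the 3 lines, while Ndufs3 had its largest estimate against the KSR1 line, where it was lowest. Of the members that fell, Cox6a2 did so against both lines and Ndufa7 against GFP, at -0.64 (adjusted p = 0.0423, a call lost in 13 of 22 alternative fits).

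Without KSR1, H-RasV12 gave very few calls over all tested probe sets and 0 among the members, a share near the background and not particular to the members. In the H-RasV12 line against the GFP line, 0 of 72 members rose or fell with limma, and 0 had an unadjusted p under 0.05, while over all 6897 probe sets 0.0725% were called and 5.96% had an unadjusted p under 0.05. The count was 0 in all 22 alternative fits as well. The members' log2 fold changes ran between -0.51 and 0.56, with a median of -0.09 beside 0.01 for all tested probe sets. By complex the medians were -0.12 in I, -0.04 in II, -0.04 in III, -0.13 in IV and -0.02 in V. For the members with the largest rise in each complex with KSR1 present, the values without it were -0.20 ± 0.17 for Ndufs3, -0.06 ± 0.18 for Sdhd, -0.04 ± 0.21 for Uqcr10, -0.04 ± 0.17 for Cox7a2 and -0.24 ± 0.18 for Atp5o (SE). Each of these estimates is smaller than 2 of its SEs.

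The difference between these 2 H-RasV12 responses, with KSR1 minus without it, was tested as an interaction. It was called for 15 of 72 members, all with the larger response in the presence of KSR1, beside 4.16% of all tested probe sets in that direction, 3.54% in the other and 7.7% in both. The members' median difference was 0.78 on the log2 scale, against -0.08 for all tested probe sets, and 65 of 72 differences were above 0. The 15 were 6 of complex I, 2 of complex II, 3 of complex III, 2 of complex IV and 2 of complex V, and all 15 also rose in the KSR1+H-RasV12 line against the KSR1 line, which enters this difference. For Ndufs3 the difference was 1.53 ± 0.24 (adjusted p = 0.00138), for Ndufa6 1.52 ± 0.26 (adjusted p = 0.0027) and for Atp5o 1.52 ± 0.25 (adjusted p = 0.00179). For Uqcr10 it was 1.46 ± 0.30 (adjusted p = 0.00779), and for Sdhd 1.34 ± 0.25 (adjusted p = 0.00439). These 5 were among 8 members, with Ndufs1, Uqcrb and Cox7a2l, whose call held in all 21 alternative fits. The count was 8 without the second H-RasV12 array, 8 without the second KSR1 array, and 9 without the second GFP array, the third GFP array or the second KSR1+H-RasV12 array.

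**Figure D4:**
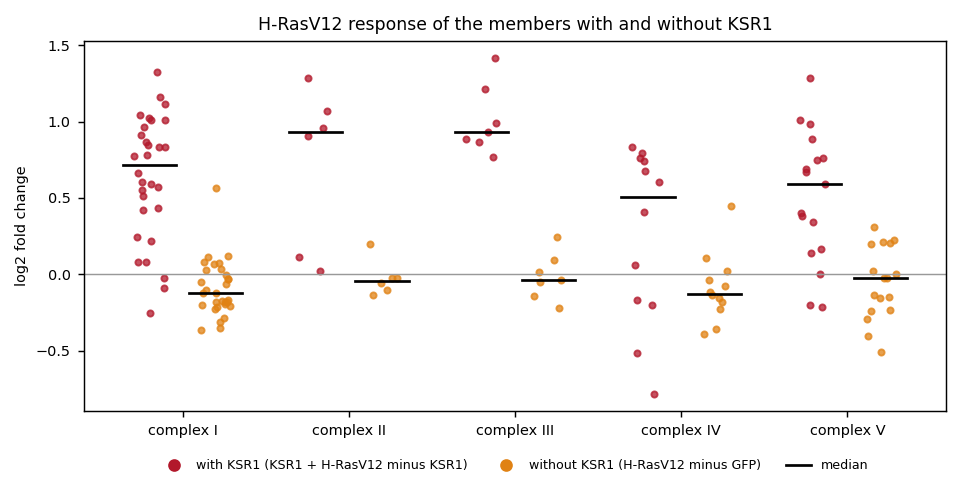
Each point is the log2 fold change of 1 tested member, by complex, for H-RasV12 with KSR1 (KSR1+H-RasV12 minus KSR1, red) and without it (H-RasV12 minus GFP, orange), with the median as a black line. The red medians lie between 0.51 and 0.93, and the orange medians between -0.13 and -0.02.

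KSR1 without H-RasV12 went with lower levels of a few members. In the KSR1 line against the GFP line, 7 of 72 members fell and 0 rose, beside 6.81% of all tested probe sets lower and 4.97% higher (11.8% called in either direction), so that the share that fell, 9.72%, was near the background. The median was -0.17, against 0.04 for all tested probe sets, and 21 of 72 were above 0. The 7 were 4 accessory subunits and 1 core subunit of complex I and 2 genes of complex IV, Cox7a2l and Cox6a2. Ndufv3, an accessory subunit beside the NADH site, read 377, 327 and 384 in the KSR1 line and 822, 748 and 964 in the GFP line, with no overlap (-1.17 ± 0.27, adjusted p = 0.0118). The other 4 of complex I were Ndufa13 at -0.76, Ndufa7 at -0.72, Ndufa6 at -0.71 and Ndufs3 at -0.66. The count was 1 without the second KSR1 array, 3 without the third GFP array, 4 without the second GFP array and 4 without the third KSR1 array.

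In Cox7a2l, a protein that joins complexes III and IV into a supercomplex, and in Ndufv3 the KSR1 line alone was low. Cox7a2l read 2598, 2401 and 2251 in the KSR1+H-RasV12 line, 1620, 1120 and 1565 in the KSR1 line, 2363, 2019 and 2300 in the H-RasV12 line and 2479, 2880 and 3254 in the GFP line. The KSR1 arrays were below all others: the log2 fold change of KSR1 against GFP was -1.00 ± 0.18 (adjusted p = 0.00199), the call that held in all 22 alternative fits, and that of KSR1+H-RasV12 against KSR1 was 0.76 ± 0.18 (adjusted p = 0.0104, lost without the second KSR1 array). Against the GFP line, the KSR1+H-RasV12 line had -0.24 ± 0.18 (adjusted p = 0.454). Ndufv3 read 1186, 798 and 447 in the KSR1+H-RasV12 line, a wide spread, and its 1.01 ± 0.27 against the KSR1 line (adjusted p = 0.0224) was lost without any 1 of the first 2 arrays of either line.

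The tissue-restricted isoforms of complex IV differed among themselves. Cox6a2, the heart and skeletal muscle form of subunit 6a, read 34.1, 37.7 and 26.8 in the KSR1+H-RasV12 line, 189, 46.6 and 36.9 in the KSR1 line, 226, 346 and 574 in the H-RasV12 line and 492, 274 and 321 in the GFP line. Both lines with KSR1 lay below both lines without it on every array. It fell by 2.77 on the log2 scale in the KSR1+H-RasV12 line against the H-RasV12 line (SE 0.45, adjusted p = 0.000618), and in the KSR1 line against the GFP line the value was -1.96 ± 0.45 (adjusted p = 0.00974, and 0.0522 without the second KSR1 array). Between the KSR1+H-RasV12 and KSR1 lines it was -0.79 ± 0.45 (adjusted p = 0.279), with 1 of the 3 KSR1 arrays at 189. Its signals in the KSR1+H-RasV12 line were near the pseudocount of 23, so these fold changes are smaller than those of the signals themselves. Such low signals carry wide errors.

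Cox7a1, the subunit 7a form of heart, muscle and brown fat, was below the filter, having only 2 arrays above 181.4. It read 245, 227 and 131 in the KSR1+H-RasV12 line, 29.3, 29.2 and 27.1 in the KSR1 line, 9.4, 9.22 and 3.13 in the H-RasV12 line and 7.04, 12.9 and 13.2 in the GFP line. The KSR1+H-RasV12 arrays stood far above the rest, and in the fit without a filter, over 12422 probe sets, the log2 fold change was 2.08 ± 0.24 against KSR1 (adjusted p = 0.000163), 2.85 ± 0.24 against H-RasV12 and 2.68 ± 0.24 against GFP. It was the only 1 of the 28 dim members called against the KSR1 line in that fit. The pseudocount of 23 makes these fold changes smaller than those of the signals themselves, which carry wide errors when so low.

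Markers of muscle and brown fat were read beside these isoforms. The 8 of 9 striated muscle markers on the array summed to 500.7 to 615.9 in the KSR1+H-RasV12 line, 515.8 to 778.8 in the KSR1 line, 470.2 to 591.1 in the H-RasV12 line and 666.6 to 767.6 in the GFP line. Of these, Ckm, muscle creatine kinase, and Myog, myogenin, passed the filter. Ckm read 74, 215 and 175 in the KSR1+H-RasV12 line and 62.9, 270.1 and 70.1 in the KSR1 line, and Myog read 100.1, 211 and 194 in the KSR1+H-RasV12 line and 235, 119 and 204 in the KSR1 line, so that both overlapped between the lines. The 5 of 6 brown fat markers on the array, which include Cox7a1 and Cox8b themselves, summed to 426.2 to 674.6 in the KSR1+H-RasV12 line, 387.3 to 546.5 in the KSR1 line, 259.7 to 368.0 in the H-RasV12 line and 190.3 to 407.9 in the GFP line. The brown fat sum of the KSR1+H-RasV12 line thus overlapped that of the KSR1 line and lay above those of the H-RasV12 and GFP lines. Cox7a1 is part of that sum, so the sum is not a reading apart from this gene. Each of the other markers in it, Ucp1, Cidea, Cox8b and Adipoq, overlapped between the KSR1+H-RasV12 line and both lines without KSR1. Of the 3 markers on that list that are not members, Ucp1, the uncoupling protein, read 26.2, 58.5 and 36.8 in the KSR1+H-RasV12 line and 94.9, 80.8 and 66.7 in the KSR1 line. Cidea, a lipid droplet protein, read 27.8, 26.9 and 6.6 in the KSR1+H-RasV12 line and 36.7, 24.5 and 11.8 in the KSR1 line, and Adipoq, adiponectin, read 34.8, 60.6 and 49.8 in the KSR1+H-RasV12 line and 96.4, 57.7 and 62.6 in the KSR1 line. None of the 3 passed the filter. No marker on either list was at 0, and the part of such cells in the isoform values was not tested. Cox8b, the muscle and brown fat form of subunit 8, read 268, 301 and 202 in the KSR1+H-RasV12 line and 289, 223 and 219 in the KSR1 line (0.06 ± 0.37, adjusted p = 0.933). Cox8c, a form known from testis, had -0.20 ± 0.19 (adjusted p = 0.523). The common form Cox8a and both Cox5a probe sets were dim, with no array above 94.4, so the arrays give little on those genes.

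**Figure D5:**
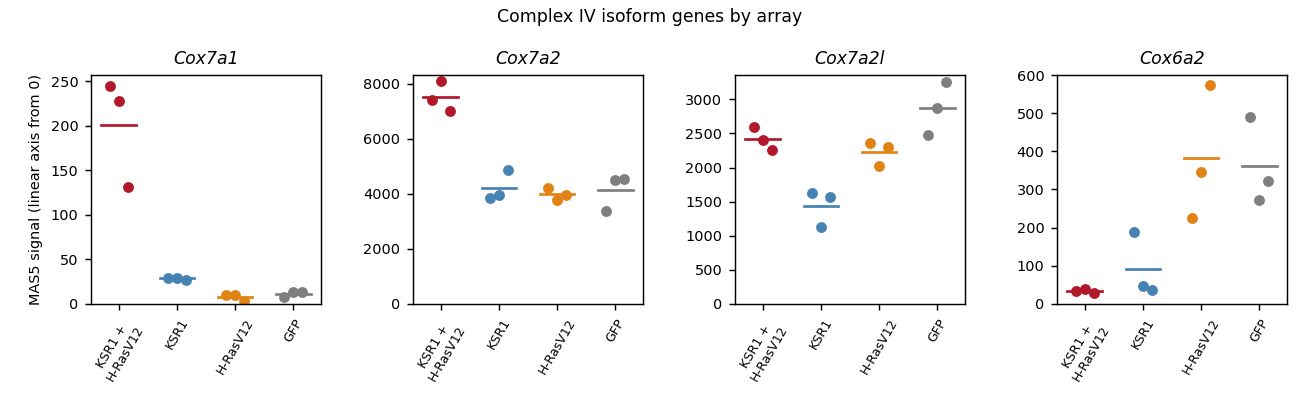
Points are MAS5 signals on each array and bars are means of 3 arrays for 4 isoform genes of complex IV, each on its own linear axis from 0, so heights are not comparable between genes. Cox7a1 and Cox7a2 are highest on the KSR1+H-RasV12 arrays, Cox7a2l is lowest on the KSR1 arrays, and Cox6a2 is low in both lines with KSR1.

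Genes that feed or serve the chain were read from lists kept apart from the members. The first list held electron carriers, enzymes that donate electrons to ubiquinone, genes needed to make ubiquinone, and Cyc1, cytochrome c1 of complex III. Of its 14 genes, 12 were named on the array and 11 tested. In the KSR1+H-RasV12 line against the KSR1 line 8 of these 11 rose, with a median of 0.94 over the 11. Coq3, Coq7, Coq9 and Cyc1 were among the 8. Coq9, needed to make ubiquinone, read 762, 804 and 784 in the KSR1+H-RasV12 line and 327, 209 and 228 in the KSR1 line (1.56 ± 0.21, adjusted p = 0.000164). Etfdh, which passes electrons from fatty acid oxidation to ubiquinone, had 1.24 ± 0.25 (adjusted p = 0.0033), and Cycs, somatic cytochrome c, had 1.10 ± 0.29 (adjusted p = 0.0175). The 3 that did not pass were Coq5 at 0.57, Gpd2 at 0.25 and Dhodh at -0.28.

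Of the assembly and biogenesis factors outside the members' symbols, 10 of 27 were named on the array and 9 tested, and 2 rose: Lrpprc, which stabilises mitochondrial messenger RNAs, by 0.73 ± 0.21 (adjusted p = 0.0291) and Foxred1, a complex I assembly factor, by 0.58 ± 0.18 (adjusted p = 0.043). Of the nuclear regulators and mitochondrial DNA maintenance genes, 13 of 15 were named and 8 tested, and 0 rose and 1 fell. That gene was Myc, which read 534, 204 and 192 in the KSR1+H-RasV12 line and 772, 743 and 629.9 in the KSR1 line (-1.29 ± 0.29, adjusted p = 0.00714). Esrra, a nuclear receptor known to act on respiratory chain genes, read 1194, 894 and 1012 in the KSR1+H-RasV12 line, 722, 505 and 437 in the KSR1 line, 351, 367 and 255 in the H-RasV12 line and 677, 248 and 383 in the GFP line. Its KSR1+H-RasV12 arrays were the highest of the 12, but against the KSR1 line it missed the threshold (0.89 ± 0.30, adjusted p = 0.0598), while it rose against H-RasV12 by 1.61 ± 0.30 and against GFP by 1.30 ± 0.30.

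Ppargc1a, the coactivator that partners Esrra, was below the filter, at 55.3, 156 and 115 in the KSR1+H-RasV12 line, 8.81, 29.2 and 14.2 in the KSR1 line, 27.3, 12.9 and 5.9 in the H-RasV12 line and 15.7, 16.1 and 11.8 in the GFP line. All 3 KSR1+H-RasV12 arrays exceeded the other 9, and in the fit without a filter the difference from the KSR1 line was 1.66 ± 0.31 (adjusted p = 0.00467). The pseudocount makes this value smaller than that of the signals themselves, which carry wide errors at such levels. Others on the list had no call: Gabpa had -0.23, Yy1 0.38 and the dim Tfam 0.06 in the fit without a filter. The 3 lists were chosen with results of these data known, and their counts stand beside the same 8.16% of tested probe sets that rose.

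As members of all 5 complexes were among those that rose, the promoters of all members were read for motifs of factors known to act on such genes. RefSeq promoter sequences (GRCm38.p6), from 250 bases before to 50 after the start of each gene, were at hand for 60 of the 73 genes. The motif searched for NRF1 was CGCANGCG, for ETS factors such as GABPA it was CCGGAAG, for ERR factors such as Esrra it was TNAAGGTCA, for YY1 it was AANATGGCG and for CREB it was TGACGTCA, on both strands, with N for any base. A promoter is shown for the member with the largest called difference in each complex, and that of Cox7a1 for the isoform that stood apart, 5′ to 3′ on the gene's strand, with every motif match in capitals.
Ndufs3 (complex I, chr2:90904672-90904971, minus strand): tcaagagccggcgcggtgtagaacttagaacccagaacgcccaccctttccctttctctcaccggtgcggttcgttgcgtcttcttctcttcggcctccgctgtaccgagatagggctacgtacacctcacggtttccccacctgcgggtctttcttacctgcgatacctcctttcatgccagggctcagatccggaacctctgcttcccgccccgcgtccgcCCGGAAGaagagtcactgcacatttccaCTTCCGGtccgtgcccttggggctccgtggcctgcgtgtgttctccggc
Sdhd (complex II, chr9:50603800-50604099, minus strand): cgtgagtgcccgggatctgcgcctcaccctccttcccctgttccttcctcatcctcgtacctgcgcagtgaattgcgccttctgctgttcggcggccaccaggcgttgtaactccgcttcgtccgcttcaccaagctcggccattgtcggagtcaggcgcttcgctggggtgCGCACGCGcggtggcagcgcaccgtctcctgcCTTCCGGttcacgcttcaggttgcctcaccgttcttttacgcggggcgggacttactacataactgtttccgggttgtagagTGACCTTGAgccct
Uqcr10 (complex III, chr11:4704295-4704594, minus strand): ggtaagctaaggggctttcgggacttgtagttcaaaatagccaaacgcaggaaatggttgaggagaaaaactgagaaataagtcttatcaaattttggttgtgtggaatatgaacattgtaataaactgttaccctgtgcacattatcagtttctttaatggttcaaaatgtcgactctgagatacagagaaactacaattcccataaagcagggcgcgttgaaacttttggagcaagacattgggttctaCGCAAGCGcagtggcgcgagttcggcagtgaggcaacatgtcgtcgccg
Cox7a2 (complex IV, chr9:79759804-79760103, minus strand): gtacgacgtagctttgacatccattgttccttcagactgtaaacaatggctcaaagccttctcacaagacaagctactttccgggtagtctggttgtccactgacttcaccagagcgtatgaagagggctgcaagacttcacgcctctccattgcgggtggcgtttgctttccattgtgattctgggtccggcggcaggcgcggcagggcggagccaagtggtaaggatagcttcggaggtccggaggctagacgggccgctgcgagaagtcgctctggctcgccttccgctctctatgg
Atp5o (complex V, chr16:91931581-91931880, minus strand): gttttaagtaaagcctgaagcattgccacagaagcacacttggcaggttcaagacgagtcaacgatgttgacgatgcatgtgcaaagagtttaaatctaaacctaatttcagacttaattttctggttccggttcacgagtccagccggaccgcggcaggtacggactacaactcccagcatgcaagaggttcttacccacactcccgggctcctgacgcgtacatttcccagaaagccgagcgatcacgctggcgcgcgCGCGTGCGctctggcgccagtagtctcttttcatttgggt
Cox7a1 (complex IV, chr7:30183921-30184220, plus strand): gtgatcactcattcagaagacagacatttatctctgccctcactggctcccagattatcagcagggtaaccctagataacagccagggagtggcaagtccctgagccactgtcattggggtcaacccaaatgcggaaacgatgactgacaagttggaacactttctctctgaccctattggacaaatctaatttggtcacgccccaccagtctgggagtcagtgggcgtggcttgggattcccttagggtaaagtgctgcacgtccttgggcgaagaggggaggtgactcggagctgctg

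The capitals mark 2 matches to the ETS motif for Ndufs3, matches to the NRF1, ETS and ERR motifs for Sdhd, and 1 match to the NRF1 motif each for Uqcr10 and Atp5o. Cox7a2 and Cox7a1 held no match to any of the 5 motifs in this window. Over the 60 genes, the NRF1 motif was found in 21 promoters (35.0%), against 9.22% of all 27025 promoters and 12.5% of the 17491 of protein-coding genes. The ETS motif was found in 18 (30.0%, against 9.93% and 12.9%) and the YY1 motif in 8 (13.3%, against 2.76% and 3.64%). The ERR motif was found in 1 (1.67%, against 1.43% and 1.19%) and the CREB motif in 2 (3.33%, against 2.03% and 2.54%), shares close to the background. No ETS match overlapped a YY1 match, and 21 of the 60 held none of the 5 motifs (35.0%, against 72.7% of coding genes).

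The NRF1 and ETS motifs were present on both sides of the call. Among genes that rose in the KSR1+H-RasV12 line against the KSR1 line, 12 of 26 promoters held the NRF1 motif and 7 the ETS motif. Among the tested genes that were not called, 8 of 25 held the NRF1 motif and 10 the ETS motif. A match is a stretch of letters and not a measured binding site.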

How the data were processed

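Affymetrix arrays were read for 12 samples, 3 in each of 4 cell lines. The deposited values are probe set intensities on a linear scale made by the authors with MAS5, per the submitters' processing notes; the MAS5 version is not given in the sources used here. MAS5 scales each array to a common mean and can leave dim probe sets with unstable values, so low signals carry wide errors. No further scaling was applied. Symbols came from the platform annotation. With limma 3.58.1 in R 4.3.3, log2(signal + 23) was fitted with 4 group means over 6897 of 12488 probe sets. The constant 23 is the 20th percentile of all signals, 66 control probe sets were left out, and 5525 did not exceed the median signal on 3 arrays. Tests were two-sided and moderated with an intensity trend, on 8 residual degrees of freedom, with Benjamini-Hochberg adjustment over all 6897 and calls at an adjusted p under 0.05. The script was tested on simulated data. Precision is limited by the number of arrays; the depth behind a signal has no count.

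Members and gene lists were chosen with earlier results of these data known. The members named were, for each complex, the 4 called with the largest change in KSR1+H-RasV12 against KSR1, the 2 uncalled with the smallest, those called in H-RasV12 or KSR1 against GFP or in the interaction (up to 6 each), tissue isoforms, disagreeing probe sets and members below 0; others named were chosen after their values were seen. Replicate numbers from the labels paired the arrays by the correlation of their deviations in KSR1+H-RasV12 against KSR1 (0.214, 0.162 and 0.432) and in H-RasV12 against KSR1 (0.121, 0.275 and 0.363). In KSR1 against GFP the arrays of the same number correlated at 0.511, 0.209 and 0.367. The second GFP array, however, correlated at 0.217 with the third KSR1 array. Elsewhere the numbers did not pair every array. The alternatives tried were other filters, pseudocounts and normalizations, no intensity trend, a replicate block, fewer arrays and plain probe sets alone. Figures were drawn with matplotlib 3.10.9 in Python 3.11.15.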

Additional observations from a re-analysis of the deposited data

Results flagged for a closer look

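In 15 members, the response to H-RasV12 with KSR1 present (KSR1+H-RasV12 minus KSR1) differed from the response without it (H-RasV12 minus GFP) in a test of the difference itself, limma's interaction term with an adjusted p under 0.05. All 15 differences were positive on the log2 scale. In complex I they were 1.53 for Ndufs3, 1.52 for Ndufa6, 1.22 for Ndufs1, 1.03 for Ndufb2 (95131_f_at), 1.00 for Ndufb9 and 0.94 for Ndufa8. In complex II they were 1.34 for Sdhd and 0.98 for Sdhb, and in complex III 1.46 for Uqcr10, 1.27 for Uqcrb and 1.21 for Uqcrh. Cox7a2l at 1.12 and Cox7a2 at 0.87 were those of complex IV, and Atp5o at 1.52 and Atp5mpl at 1.05 those of complex V. The calls of Ndufs3, Ndufa6, Ndufs1, Sdhd, Uqcr10, Uqcrb, Cox7a2l and Atp5o held in all 21 alternative fits. The other 7 were lost in at least 1 fit, Ndufb2 in 13 of 21 and Atp5mpl in 12.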

How the results depend on the processing

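Leaving out 1 array at a time gave 19 to 38 calls among the members for KSR1+H-RasV12 against KSR1 (35 with all arrays), 17 to 28 against H-RasV12 (27), 14 to 23 against GFP (25), 0 for H-RasV12 against GFP (0), 1 to 8 for KSR1 against GFP (7) and 8 to 19 for the interaction (15). The fit on the compared arrays alone gave 14 calls for KSR1+H-RasV12 against GFP. With the replicate number as a block, the counts were 42, 35, 30, 0 and 7 for these 5 comparisons and 28 for the interaction, for which the numbers did not pair all groups. The other alternatives, median centring and plain probe sets alone (chosen after seeing the data) among them, stayed within 1.5 times of these counts. Of the 35 calls against KSR1, 17 held in all 22 alternatives, as did 14 of 27 against H-RasV12, 12 of 25 against GFP, 1 of 7 for KSR1 against GFP, and 8 of 15 for the interaction in 21. Among 39 named members, 784 of 854 alternative values against KSR1 kept their direction and their side of the threshold, 34 lost the call and 5 gained it. The other 31, for 12 members not called in any of these fits, changed sign. With quantile normalization the estimates that changed sign were 0.001 for Atp5d (94279_at), -0.044 for Atp5g2, 0.035 for Cox4i1 (93788_at), 0.0032 for Ndufa10 and -0.011 for Ndufa7. With median centring they were 0.074 for Ndufa10 and 0.14 for Ndufa2. On replicates 2 and 3 alone they were 0.044 for Atp5d (94279_at), -0.12 for Atp5e, -0.11 for Atp5g2, 0.093 for Atp5l (99678_f_at), 0.014 for Cox4i1 (93788_at), 0.21 for Ndufa10, -0.057 for Ndufa7 and -0.048 for Sdhaf2. Leaving out 1 array at a time, the ranges that crossed 0 were -0.50 to 0.084 for Atp5d (94279_at), -0.019 to 0.38 for Atp5e, -0.15 to 0.13 for Atp5g2, -0.39 to 0.003 for Cox4i1 (93788_at), -0.051 to 0.21 for Cox8b, -0.51 to 0.088 for Ndufa1, -0.36 to 0.12 for Ndufa10, -0.14 to 0.095 for Ndufa2, -0.0013 to 0.22 for Ndufa7, -0.15 to 0.32 for Ndufv2 (162327_f_at) and -0.051 to 0.16 for Sdhaf2. The cause was not tested. Dim probe sets limit what can be said of 9 genes below the filter, and 3 arrays of 1 line for each condition limit the rest.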
